A study of Mus musculus with 6 samples.

Results

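A set of 10 genes that mark mesothelium and the ovarian surface were followed in a mouse ovarian cancer line with and without the guanine nucleotide exchange factor Rgnef. They were chosen by name: Wt1, Gata4, Gata6, Nr2f2, Tbx18 and Bnc1, which encode transcription regulators, and Msln, Muc16, Upk3b and Lrrn4, which encode surface proteins. Of these 10 genes, 9 were measured among the 35275 genes of the table and 8 reached the mean level needed for the test, among 11500 genes that did. Muc16, which encodes the mucin known as CA125, was not analysed here, and Lrrn4 was below the level for testing. On chromosomes 7 and 9 lie 4 of the 10 genes, of which Nr2f2, Bnc1 and Tbx18 were tested, and these are given apart from Wt1, Gata4, Gata6, Msln and Upk3b. The reason is that most called genes of those chromosomes were higher in the knockout libraries.

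Messenger RNA was sequenced from 3 libraries of Rgnef-/- ID8-KMF cells, called knockout libraries, and from 3 libraries of the same Rgnef-/- cells re-expressing GFP-Rgnef from a lentivirus, called GFP-Rgnef libraries. ID8-KMF is a C57Bl6/J ovarian cancer line obtained from ID8 cells by passage in mice, and both kinds of cell were grown subconfluent in 2D on Matrigel-seeded dishes. All 6 libraries therefore lack endogenous Rgnef, and the effect of the lentivirus and of the GFP tag cannot be told apart from that of Rgnef. Nothing in the labels says that the libraries of 1 group came from separate cultures, and the spread behind the p-values may then be technical.

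Mesothelium is the epithelium-like sheet that lines the body cavities, and the ovarian surface epithelium is its continuation over the ovary. Both descend from the coelomic epithelium, where the zinc finger factor WT1 and the GATA factors GATA4 and GATA6 act in the embryo, and both keep keratins beside mesenchymal genes. ID8 cells were derived from mouse ovarian surface epithelium, and mesothelin is known to bind CA125.

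The table gives FPKM, which is fragments per kilobase of transcript scaled to library depth, for comparing levels between genes and between libraries. FPKM sums still differed between libraries, from 624078 in knockout 1 to 647820 in GFP-Rgnef 3. TPM scaling, which evens these sums, is given among the alternatives. Whole reads could be worked back from the table, at implied depths of 15898965 to 17977069 reads per library. Arhgef28, the gene of Rgnef, stood at 0.110 to 0.134 FPKM in knockout libraries and 50.02 to 57.2 FPKM in GFP-Rgnef libraries, as the labels state. In each group the library numbered 3 lay away from libraries 1 and 2, and a result that rests on it is also given without it.

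The members' levels spanned a wide range from near 0, with the same 3 genes highest in both groups. In knockout libraries Upk3b averaged 251 ± 117 FPKM, Wt1 201 ± 16.2 FPKM and Msln 154 ± 25.8 FPKM (SD, n = 3). In GFP-Rgnef libraries Wt1 averaged 191 ± 10.1 FPKM, Msln 176 ± 17.6 FPKM and Upk3b 92.3 ± 43.1 FPKM (SD, n = 3). Over all 6 libraries the means of these 3 genes exceeded those of 94.3% to 95.5% of tested genes. Gata4 and Gata6 followed at 38.6 ± 3.23 and 35.4 ± 3.50 FPKM in knockout libraries, against 39.0 ± 2.79 and 38.2 ± 1.79 FPKM in GFP-Rgnef libraries. In both groups Nr2f2, Tbx18, Bnc1 and Lrrn4 came next in that order. Among neighbours in this order, library ranges overlapped between Upk3b and Wt1, Gata4 and Gata6, and Gata6 and Nr2f2 in knockout libraries, and between Wt1 and Msln and between Gata4 and Gata6 in GFP-Rgnef libraries.

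**Figure D1:**
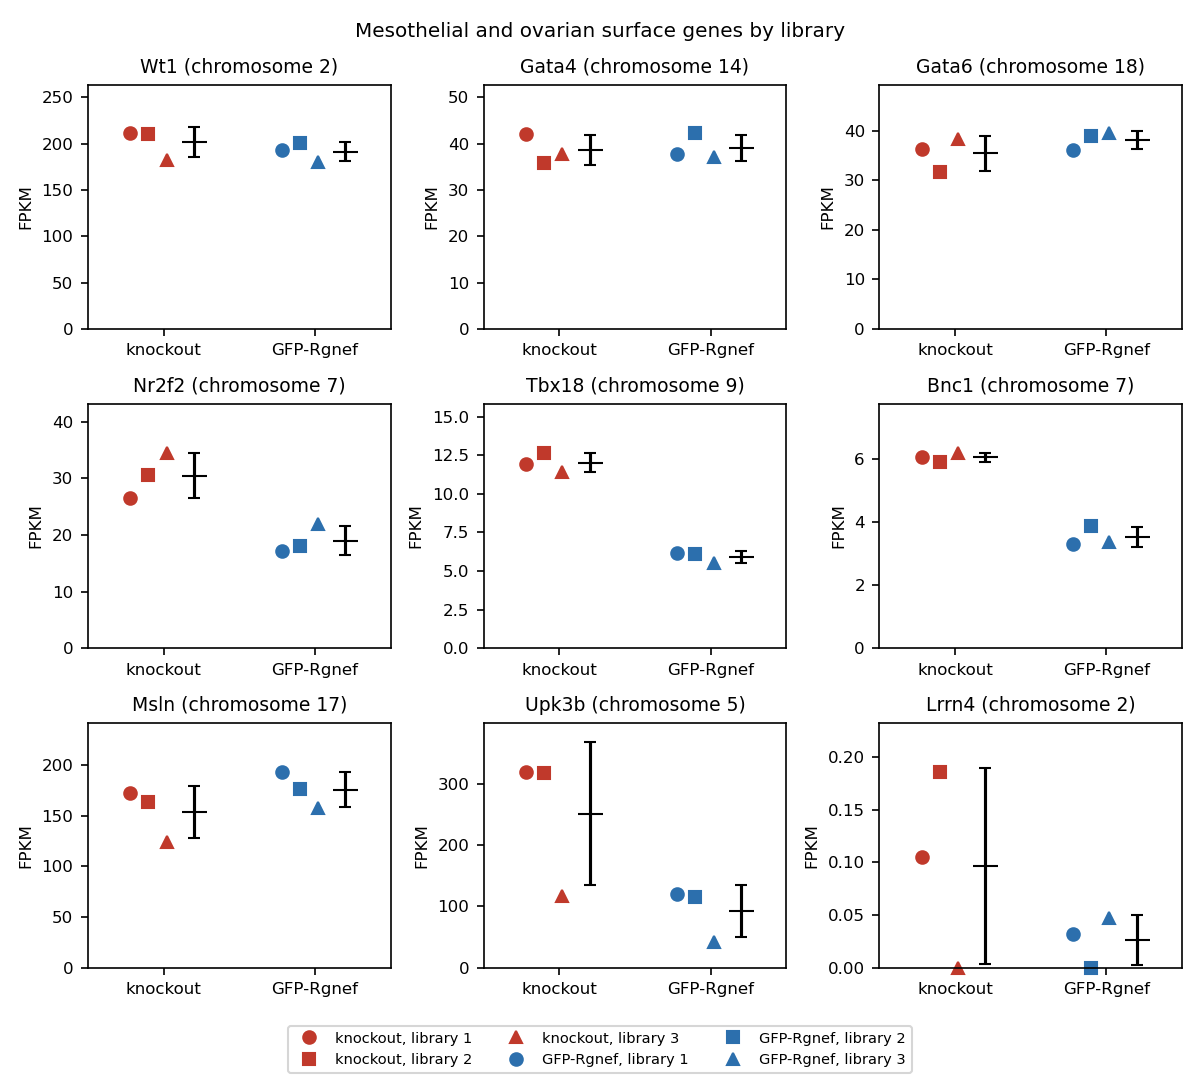
FPKM of the 9 measured genes in each library, with knockout libraries left and GFP-Rgnef libraries right in each panel, a marker shape for each library number, and the mean and SD as a black bar. Nr2f2, Tbx18 and Bnc1 separate the groups, while Upk3b is low in the library numbered 3 of each group, at 116 and 42.6 FPKM.

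Rgnef status was compared next, as knockout minus GFP-Rgnef on the log2(FPKM + 1) scale, which understates changes of low genes. Of the 8 tested genes 3 rose in the knockout libraries, Tbx18, Bnc1 and Nr2f2, and 0 fell (limma, Benjamini-Hochberg adjusted p below 0.05). Among all tested genes 8.04% were called higher and 5.34% lower. All 3 that rose lie on chromosome 7 or 9, where 32.2% of tested genes were called higher and 1.03% lower. Outside these chromosomes 0 of 5 members were called, where 4.53% of tested genes were called higher and 5.96% lower. Voom on recovered reads also called 0 of these 5. Upk3b had the smallest p of the 5 (limma unadjusted p = 0.0164, adjusted p = 0.0878). The median difference of the 8 tested members was 0.36, against -0.02 over all tested genes. This median includes the 3 members on chromosomes 7 and 9, with differences of 0.64 to 0.91. The 5 members elsewhere had differences of -0.20 (Msln), -0.11 (Gata6), -0.02 (Gata4), 0.07 (Wt1) and 1.43 (Upk3b).

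Tbx18, a T-box repressor of the epicardium and other coelomic linings, had 11.9, 12.7 and 11.4 FPKM in knockout libraries and 6.17, 6.09 and 5.49 FPKM in GFP-Rgnef libraries. The groups did not overlap, as for 63.2% of tested genes of chromosome 9 with all knockout libraries above. These values rest on 488 to 562 reads per knockout library and 242 to 268 per GFP-Rgnef library. The ratio of means was 2.03, and the difference was 0.91 (SE 0.086, limma adjusted p = 0.000886). On chromosome 9 (87702800 to 87731260, minus strand, GRCm38), where the median difference of 639 tested genes was 0.28, only 16 genes had a larger one.

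Bnc1, which encodes the zinc finger protein basonuclin 1, had 6.04, 5.89 and 6.19 FPKM in knockout libraries against 3.28, 3.88 and 3.37 FPKM in GFP-Rgnef libraries. Its groups were apart too, with a ratio of means of 1.72 and a difference of 0.64 (SE 0.095, limma adjusted p = 0.00499). Nr2f2, which encodes the orphan nuclear receptor COUP-TFII, had 26.5, 30.5 and 34.5 FPKM in knockout libraries and 17.1, 18.0 and 21.9 FPKM in GFP-Rgnef libraries. The lowest knockout library was thus above the highest GFP-Rgnef library, as for 54% of tested genes of chromosome 7. The ratio of means of Nr2f2 was 1.61 and its difference 0.66 (SE 0.121, limma adjusted p = 0.0113). Its call was lost without knockout 2 (adjusted p = 0.0521) and without GFP-Rgnef 2 (adjusted p = 0.0509). Both genes lie on chromosome 7, Nr2f2 at 70351944 to 70366735 and Bnc1 at 81966672 to 81992292, both on the minus strand. Of the 819 tested genes there, whose median difference was 0.24, 27 had a larger difference than Nr2f2 and 30 a larger one than Bnc1.

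**Figure D2:**
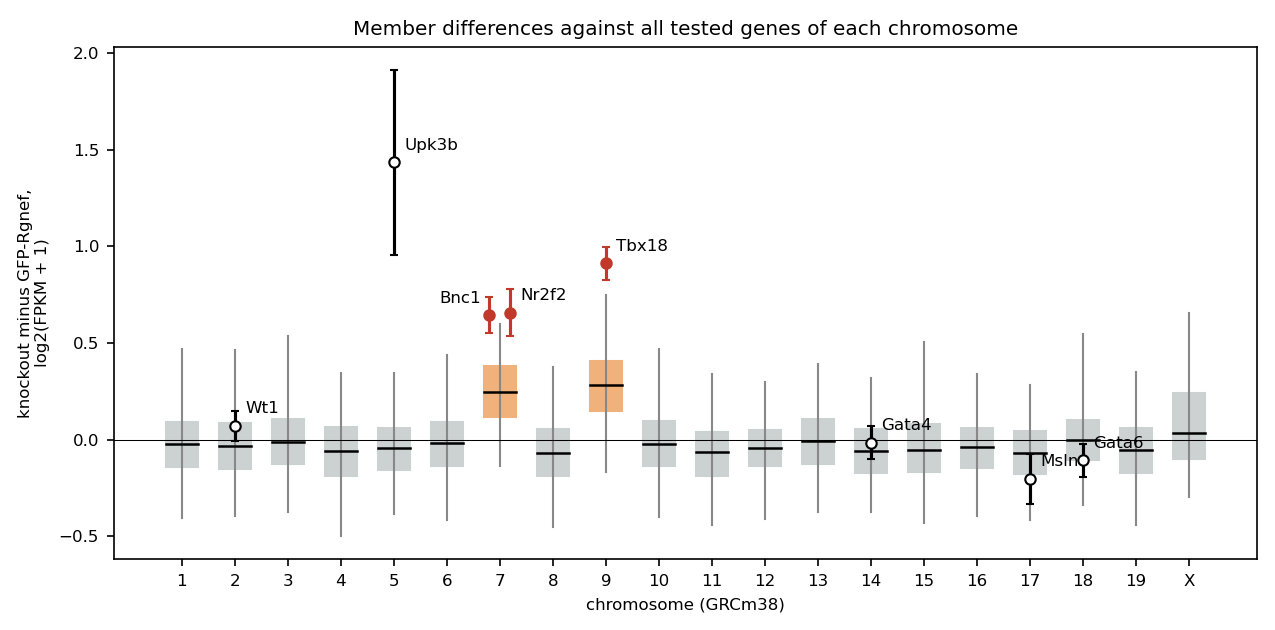
Knockout minus GFP-Rgnef difference, log2(FPKM + 1), of the 8 tested members with SE bars (filled where called), over all tested genes of each chromosome, shown by the 5th to 95th percentile (line), the quartiles (box) and the median. Chromosomes 7 and 9, in orange, have medians of 0.24 and 0.28, and Tbx18, Nr2f2 and Bnc1 lie above most genes of their chromosome.

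When each chromosome's median deviation was removed from each library, Tbx18 kept a difference of 0.62 (limma adjusted p = 0.00491) and Bnc1 one of 0.39 (adjusted p = 0.0366). Nr2f2 kept 0.40 and was no longer called (adjusted p = 0.105). The 10 nearest tested genes, 5 on each side, had median differences of 0.11 around Tbx18, 0.33 around Bnc1 and 0.26 around Nr2f2. The largest difference among these neighbours was 0.51 at Tbx18, 0.62 at Bnc1 and 0.51 at Nr2f2, each smaller than that of the member itself. Whether a change in copy number of these chromosomes contributes was not tested.

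**Figure D3:**
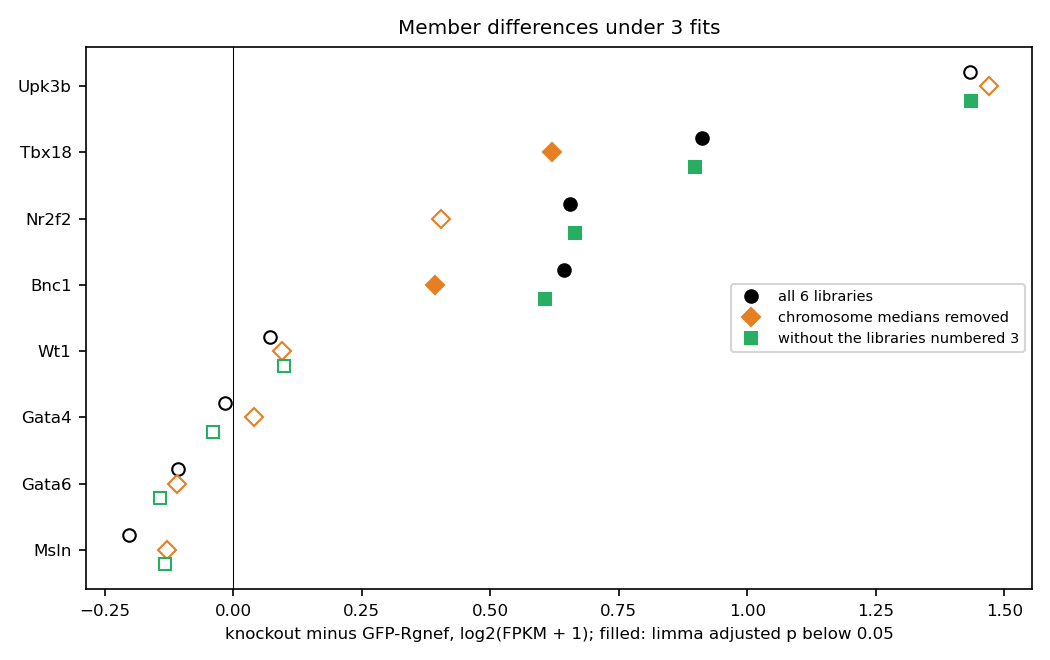
Knockout minus GFP-Rgnef difference of the 8 tested members, log2(FPKM + 1), with all 6 libraries, with each chromosome's median deviation removed, and without the libraries numbered 3 (filled where limma's adjusted p is below 0.05). Centring lowers Tbx18, Nr2f2 and Bnc1 to 0.62, 0.40 and 0.39, and leaving out the libraries numbered 3 leaves Upk3b at 1.44 and called.

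The other regulators did not pass the test. They lie on other chromosomes of GRCm38, Wt1 on chromosome 2 (105126529 to 105173616, plus strand), Gata4 on chromosome 14 (63198922 to 63271692, minus strand) and Gata6 on chromosome 18 (11052064 to 11085635, plus strand). Wt1 had 211, 210.3 and 183 FPKM in knockout libraries against 193, 200.3 and 180.5 FPKM in GFP-Rgnef libraries. These ranges overlap, and the difference was 0.07 with a 95% interval of -0.11 to 0.25 (limma adjusted p = 0.614). Gata4 had 42.1, 35.8 and 37.9 FPKM in knockout libraries and 37.8, 42.2 and 37.1 FPKM in GFP-Rgnef libraries, so that the ranges nearly coincided. Its difference was -0.02 with a 95% interval of -0.21 to 0.18 (limma adjusted p = 0.928), and its sign turned with TPM scaling, after chromosome centring and without either library numbered 2. Gata6 had 36.3, 31.6 and 38.4 FPKM in knockout libraries and 36.1, 38.9 and 39.5 FPKM in GFP-Rgnef libraries. Here too the groups overlapped, and the difference was -0.11 with a 95% interval of -0.31 to 0.09 (limma adjusted p = 0.474). Each interval lies within a change of 0.31 in size on the log2 scale.

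Of the surface proteins, mesothelin RNA did not pass the test. Msln (chromosome 17, 25748613 to 25754378, minus strand) had 173, 164 and 124 FPKM in knockout libraries and 193, 177 and 158 FPKM in GFP-Rgnef libraries. The knockout library numbered 3 was lowest, and the others lay within the range of the GFP-Rgnef libraries. The difference was -0.20 with a 95% interval of -0.50 to 0.09 (limma adjusted p = 0.353). Lrrn4 (chromosome 2, 132868305 to 132880891, minus strand), a leucine-rich repeat membrane protein used as a mesothelial marker, was close to absent. It had 7, 12 and 0 reads in knockout libraries and 2, 0 and 3 reads in GFP-Rgnef libraries, which is at most 0.186 FPKM. A count of 0 allows up to 3 reads, or 0.0482 FPKM in knockout 3 and 0.0508 FPKM in GFP-Rgnef 2 (counting error only). Without a filter on low values its difference was 0.09 (limma adjusted p = 0.521).

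Upk3b (chromosome 5, 136038496 to 136046487, plus strand), a uroplakin of the apical membrane of urothelium and mesothelium, had the largest difference of the 8 genes without passing the test. It had 319, 318 and 116 FPKM in knockout libraries and 120, 115 and 42.6 FPKM in GFP-Rgnef libraries, from 1727 to 13458 reads per library. Knockout 3 lay between GFP-Rgnef 1 and GFP-Rgnef 2, so the groups overlapped, and the lowest value of each group was the library numbered 3. The ratio of means was 2.72, and the difference was 1.43 (SE 0.477, 95% interval 0.34 to 2.53, limma adjusted p = 0.0878). Without knockout 3 the difference was 1.91 and called (limma adjusted p = 0.0204). Without both libraries numbered 3 it was 1.44 and called (limma adjusted p = 2.13e-06). Those libraries were the lowest of each group, so leaving them out by itself removes most of the spread within groups. Only 1 of the 735 tested genes of chromosome 5 had a larger difference. Its 10 nearest tested genes had a median difference of 0.004, and the largest among them was 1.38, close to that of Upk3b.

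Start-site sequences are shown for the 3 called members, and for Upk3b because it had the largest difference of the 8 tested members, although it did not pass the test. Each is the 250 bases before the start, 5′ to 3′ on the gene's strand, from RefSeq on GRCm38.p6: chr9:87731261-87731510 (minus strand) for Tbx18, chr7:81992300-81992549 (minus strand) for Bnc1, chr7:70366747-70366996 (minus strand) for Nr2f2 and chr5:136038246-136038495 (plus strand) for Upk3b. Capitals mark matches on either strand to short words. The words for GATA factors were AGATAA with its variant AGATAG, and TGATAA with its variant TGATAG. Those for TEAD factors, for nuclear receptors such as NR2F2, and for T-box factors were GGAATG for the TEAD family, AGGTCA for the receptors and AGGTGT for the T-box family. The words for WT1 and EGR factors were GCGTGGG and its variant GCGGGGG.
Tbx18: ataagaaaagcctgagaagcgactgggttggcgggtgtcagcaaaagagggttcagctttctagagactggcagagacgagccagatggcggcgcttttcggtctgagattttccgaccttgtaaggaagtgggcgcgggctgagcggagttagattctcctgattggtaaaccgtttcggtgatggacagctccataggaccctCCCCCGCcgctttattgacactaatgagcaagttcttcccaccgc
Bnc1: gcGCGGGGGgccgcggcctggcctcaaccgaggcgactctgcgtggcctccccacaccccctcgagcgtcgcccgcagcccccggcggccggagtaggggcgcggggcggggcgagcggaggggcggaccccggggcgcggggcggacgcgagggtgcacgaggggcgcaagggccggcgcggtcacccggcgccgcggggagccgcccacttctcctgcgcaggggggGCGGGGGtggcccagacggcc
Nr2f2: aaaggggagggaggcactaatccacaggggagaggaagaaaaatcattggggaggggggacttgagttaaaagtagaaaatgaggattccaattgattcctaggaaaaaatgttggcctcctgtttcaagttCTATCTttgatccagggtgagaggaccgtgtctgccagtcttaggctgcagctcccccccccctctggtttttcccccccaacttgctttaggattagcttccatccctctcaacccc
Upk3b: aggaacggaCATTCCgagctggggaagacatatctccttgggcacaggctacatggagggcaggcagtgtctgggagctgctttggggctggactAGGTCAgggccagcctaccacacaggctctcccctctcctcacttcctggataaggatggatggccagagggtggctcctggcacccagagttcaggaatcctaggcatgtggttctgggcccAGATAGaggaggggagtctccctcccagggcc

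No motif was shared by all 4 windows. Bnc1 held 2 matches to the WT1 and EGR words and Tbx18 held 1, words found in 13% of all 32851 promoter windows of this length. Bnc1's window was 83.6% G or C, against 50% to 60.8% in the other windows, and whether this accounts for its matches was not tested. Upk3b held 1 GATA word, 1 TEAD word and 1 AGGTCA word, which occur in 26.5%, 12.6% and 14% of windows, and Nr2f2 held 1 GATA word. The T-box word, in 11.8% of windows, was found in none of them. No match overlapped another.

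The likeness of other genes was measured as the root mean square distance between log2(FPKM + 1) deviations over the 6 libraries, among 8355 other genes with a mean of at least 5 FPKM. Nearest to Tbx18 were Ankrd27, Esam, Ryk, Serpinh1 and Mical2, at distances of 0.053 to 0.074 and differences of 0.79 to 0.92. All 5 lie on chromosome 7 or 9, which hold 1458 of all 11500 tested genes and 470 of the 925 called higher. Nearest to Upk3b were the matrix protease gene Adamts1 (distance 0.19), the tight junction claudin gene Cldn15 (0.30), the endothelin gene Edn1 (0.34), Sox8 (0.45) and the protocadherin gene Pcdh19 (0.47), none on chromosome 7 or 9. Adamts1 had 168, 171 and 69.7 FPKM in knockout libraries and 84.4, 68.2 and 31.8 FPKM in GFP-Rgnef libraries. Like Upk3b it was lowest in the library numbered 3 of each group.

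The libraries numbered 3 had lower RNA of several identity genes in both groups. Wt1, Msln, Upk3b and Tbx18 were lowest there in both groups, which is 4 of 8 tested members, while Nr2f2 and Gata6 were highest. Among all tested genes the library numbered 3 was lowest in both groups for 22.2% and highest in both for 26%. Upk3b was lower by 1.45 in knockout 3 and by 1.44 in GFP-Rgnef 3 than in the mean of the other libraries of its group, on the log2(FPKM + 1) scale. Of 23 other mesothelial genes 11 were lowest in both (47.8%) and 3 highest in both (13%). The 3 highest in both were Slpi, Procr and Dmkn. The keratin gene Krt19, 1 of the 11, had 1309, 1268 and 679 FPKM in knockout libraries and 1412, 1359 and 794 FPKM in GFP-Rgnef libraries. Cldn15, another of the 11, had 22.3, 20.5 and 9.79 FPKM in knockout libraries and 11.7, 10.8 and 4.21 FPKM in GFP-Rgnef libraries.

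Fibroblast markers moved with the libraries numbered 3. Of 5 tested markers, Pdgfra, Col1a1, Col1a2 and Col3a1 were highest there in both groups and Dcn lowest. Col1a2, a chain of type I collagen, had 0.173, 0.0768 and 5.83 FPKM in knockout libraries and 0.00, 0.00 and 2.45 FPKM in GFP-Rgnef libraries. The summed level of all 8 markers was 42.1 to 50.8 FPKM in knockout libraries and 53.3 to 73.3 FPKM in GFP-Rgnef libraries, of which Dcn, the proteoglycan decorin, made up 23.3 to 38.8 FPKM and 43.4 to 69.7 FPKM in the same groups. Thy1, Pdgfrb and Lum had means under 0.5 FPKM. The part of these markers in the values of Upk3b was not tested. In RNA from whole cultures, fewer cells expressing a gene and less RNA per cell cannot be told apart.

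**Figure D4:**
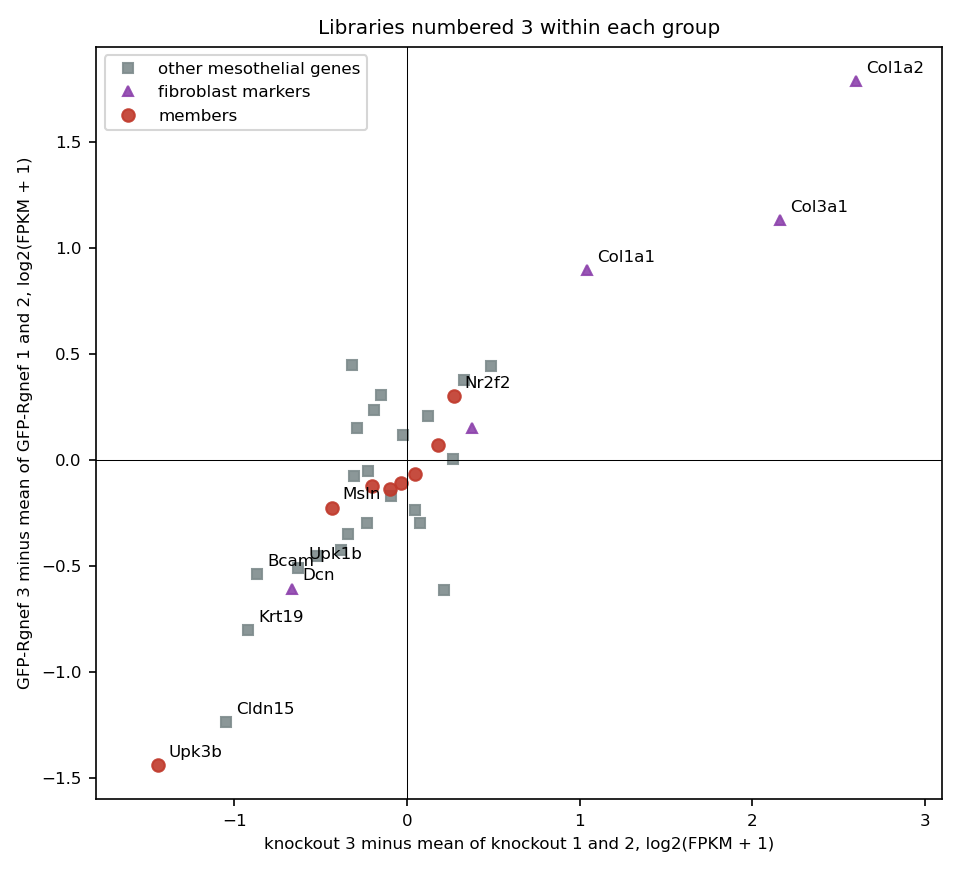
Deviation of the library numbered 3 from the mean of the other libraries of its group, log2(FPKM + 1), in knockout libraries (x axis) and GFP-Rgnef libraries (y axis), for members, other mesothelial genes and fibroblast markers. Upk3b lies at -1.45 and -1.44 and Cldn15 at -1.05 and -1.24, while Col1a2 lies at 2.60 and 1.79.

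Beyond the members, 29 other mesothelial genes were followed. Of these, 6 averaged under 0.5 FPKM and were not tested: Calb2, which encodes calretinin, the keratin gene Krt7, and Rspo1, Aldh1a2, Rarres2 and Cd200. Of the 23 tested, 2 rose, 3 fell and 18 did not pass, with a median difference of 0.13. The share that rose, 8.7%, was near the 8.04% of all tested genes, and 13% fell, against 5.34%. Thbd, the anticoagulant receptor thrombomodulin, rose to 3.68 ± 0.520 FPKM in knockout libraries, against 1.199 ± 0.236 FPKM in GFP-Rgnef libraries (SD, n = 3). Podxl, the sialomucin podocalyxin, rose to 55.8 ± 3.62 FPKM in knockout libraries, against 30.6 ± 4.26 FPKM in GFP-Rgnef libraries. Dmkn, which encodes the secreted protein dermokine, fell to 0.895 ± 0.103 FPKM in knockout libraries, against 2.75 ± 0.359 FPKM in GFP-Rgnef libraries, although it lies on chromosome 7. These 3 genes had limma adjusted p from 0.00247 to 0.00275. Krt18, a keratin gene, fell to 224 ± 9.21 FPKM in knockout libraries, against 320 ± 29.8 FPKM in GFP-Rgnef libraries, and Igfbp6, which encodes a binding protein of insulin-like growth factors, also fell (limma adjusted p = 0.00625 and 0.0163). Without the libraries numbered 3, 9 rose and 5 fell, while 1278 of all genes rose and 1059 fell. That fit filtered genes on the mean of its own libraries. Shares of tested genes were not worked out for it, here or for the lists below.

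Partners of the member factors included the largest change of the related lists. Basp1, a corepressor of WT1, rose to 178 ± 2.04 FPKM in knockout libraries, against 53.2 ± 10.7 FPKM in GFP-Rgnef libraries (difference 1.75, SE 0.131, limma adjusted p = 0.000272). Zfpm1, which encodes the GATA cofactor FOG1, fell to 43.2 ± 5.18 FPKM in knockout libraries, against 74.7 ± 8.23 FPKM in GFP-Rgnef libraries (difference -0.78, SE 0.110, limma adjusted p = 0.00456). Pawr, which encodes a WT1-binding protein, fell to 60.6 ± 2.08 FPKM in knockout libraries, against 80.3 ± 3.07 FPKM in GFP-Rgnef libraries (difference -0.40, SE 0.063, limma adjusted p = 0.00625). Of the 8 tested partners 12.5% thus rose and 25% fell, against 8.04% and 5.34% of all tested genes. The other 5 partners did not pass, and the list's median was 0.06.

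Of 8 tested genes reported as WT1 targets, Podxl rose and Wnt4 fell (12.5% each way), with a median of -0.23. Among all tested genes 8.04% rose and 5.34% fell. Wnt4, a signal of the developing female gonad, had 4.77, 4.22 and 4.37 FPKM in knockout libraries and 10.3, 10.9 and 6.76 FPKM in GFP-Rgnef libraries (difference -0.90, SE 0.160, limma adjusted p = 0.00982). It was also called among the 11 tested coelomic and gonadal regulators, of which 1 fell (9.09%) and 0 rose, with a median of 0.02. Under 7 alternatives 1 regulator rose, among them voom on recovered reads and the fit without both libraries numbered 3. Fst, which encodes the activin-binding protein follistatin, did not pass the test with all 6 libraries (limma adjusted p = 0.0516). It had 4.62, 4.99 and 5.21 FPKM in knockout libraries and 3.95, 3.095 and 3.67 FPKM in GFP-Rgnef libraries. With both libraries numbered 3 left out, 2 targets rose and 3 fell, while 1278 of all genes rose and 1059 fell.

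Among 9 tested genes listed as paralogs of the members, which include Upk1b of another family, Gata3 rose and 0 fell. The share that rose was 11.1%, against 8.04% of all tested genes, of which 5.34% fell. Gata3 had 4.86, 5.53 and 9.46 FPKM in knockout libraries against 2.89, 2.82 and 3.35 FPKM in GFP-Rgnef libraries (difference 0.88, SE 0.203, limma adjusted p = 0.0267). Its call was lost without knockout 2, GFP-Rgnef 1 or GFP-Rgnef 2 and without a filter, with limma adjusted p of 0.064 to 0.0894. Without the libraries numbered 3, 2 genes of the list rose, while 1278 of all genes rose. Upk1b, a uroplakin of another family that partners uroplakin III proteins, had 160 ± 40.3 FPKM in knockout libraries and 126 ± 24.9 FPKM in GFP-Rgnef libraries (limma adjusted p = 0.34).

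Markers of other cell types were mostly at or near 0. Of the epithelial markers Cdh1 had 5.15 ± 1.68 FPKM in knockout libraries and 7.33 ± 0.266 FPKM in GFP-Rgnef libraries, and 5 of 7 were under 0.5 FPKM. Cldn3, a claudin gene, had 2.16 ± 1.19 FPKM in knockout libraries and 1.91 ± 0.513 FPKM in GFP-Rgnef libraries. Of the immune markers 5 of 6 were under 0.5 FPKM, and Cd68 had 2.83 ± 0.858 FPKM in knockout libraries and 2.62 ± 0.713 FPKM in GFP-Rgnef libraries. Of the endothelial markers 4 of 5 were under 0.5 FPKM, while the receptor gene Tek had 124 ± 33.6 FPKM in knockout libraries and 104 ± 7.15 FPKM in GFP-Rgnef libraries. Of the granulosa and theca markers 4 of 6 were under 0.5 FPKM, and Star had 1.18 ± 0.104 FPKM in knockout libraries and 1.45 ± 0.198 FPKM in GFP-Rgnef libraries. With all 6 libraries none of these 4 lists had a called gene in limma. Tek, which was low in knockout 3, was called without that library (difference 0.47, limma adjusted p = 0.011) and without both libraries numbered 3 (difference 0.41, limma adjusted p = 0.00239). Among the 5 tested fibroblast markers 1 fell (20%) and 0 rose, against 5.34% and 8.04% of all tested genes. Their median difference was 0.49. Col1a1 had 4.03, 3.61 and 8.92 FPKM in knockout libraries and 1.35, 0.989 and 3.02 FPKM in GFP-Rgnef libraries, and did not pass the test (limma adjusted p = 0.051). The differences of Pdgfra, Col3a1 and Col1a2, which did not pass either, were 0.49, 0.68 and 0.44. Under 8 alternatives, among them the fit without both libraries numbered 3, 1 fibroblast marker rose. Dcn, the marker that fell, had 32.8 ± 8.32 FPKM in knockout libraries and 58.9 ± 13.8 FPKM in GFP-Rgnef libraries (limma adjusted p = 0.0426). This call was lost with any 1 library other than GFP-Rgnef 3 left out and under 4 other alternatives, and without both libraries numbered 3 the difference was -0.81 and called (limma adjusted p = 0.000244).

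**Figure D5:**
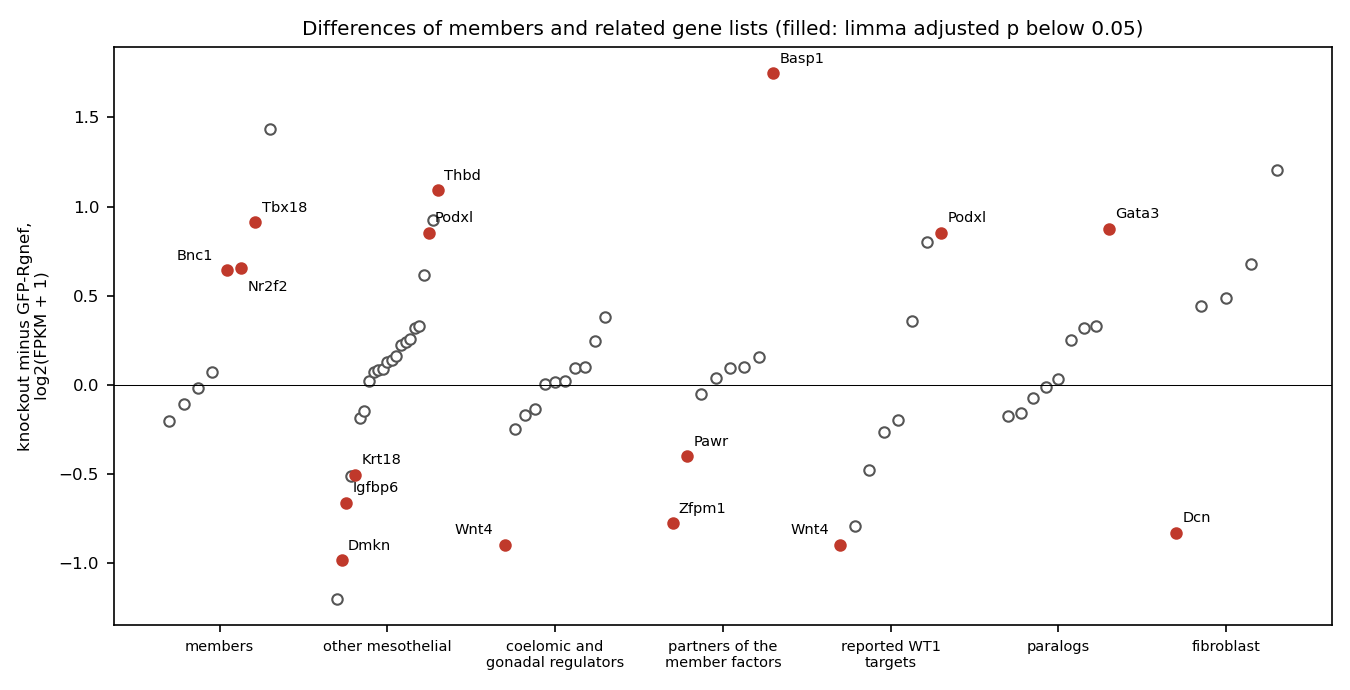
Knockout minus GFP-Rgnef difference, log2(FPKM + 1), of each tested gene of the members and of 6 related lists, filled and named where limma's adjusted p is below 0.05. Basp1 is highest at 1.75, and Upk3b is the open point at 1.43 among the members.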

How the data were processed

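The authors deposited 1 table of FPKM values for 35275 Ensembl genes in 6 libraries, all columns of which were used. The submitters' processing notes name CASAVA 1.8, TopHat2 2.0.9, DESeq2 and mm10, while counting tool, annotation and strand handling are not given in the sources used here. GENCODE M 21 (GRCm38) supplied coordinates and symbols, naming 34490 identifiers. Genes averaging 0.5 FPKM or more were tested with limma 3.58.1 (trend, R 4.3.3) on log2(FPKM + 1), Benjamini-Hochberg adjusted over 11500 genes. Differences are knockout minus GFP-Rgnef. Whole reads were recovered from the FPKM steps (tolerance 0.02 of a read) for all but 1 of 19655 genes above 0, for 15426 of them by the smallest length that gave whole reads, and summed to 99.77% to 99.85% of the implied depth. The fit was tested on simulated data.

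The members and gene lists were chosen with earlier results of these data known. Named genes were every member, Arhgef28, up to 3 called genes per related list (at least 2 with the most abundant), and the 5 genes nearest in pattern to Tbx18 and Upk3b, the members with the smallest p on and off chromosomes 7 and 9. Genes named outside this rule were chosen after their values were seen. A gene that the rule names is not reported here. Alternatives covered pseudocounts of 0.1 and 0.5, filters, TPM and median-ratio scaling, limma without trend, voom on recovered reads, the replicate number as a block, chromosome centring, and libraries left out. Exons of Bnc1, Nr2f2 and Gata6 overlap genes averaging at most 1.16 FPKM, and those of Tbx18 overlap a gene not analysed here. Tables and plots used Python 3.11.15.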

Additional observations from a re-analysis of the deposited data

How the results depend on the processing

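Tbx18 and Bnc1 kept their call under every alternative that tested them, Bnc1 being below the filter at a mean FPKM of at least 5. Nr2f2 was weaker after chromosome centring (0.40), and with any 1 library left out its difference was 0.56 to 0.76. Upk3b was called without both libraries numbered 3 (1.44) and ranged from 0.95 to 1.91 with any 1 library left out, being called without knockout 3 alone. Gata4, never called, turned to 0.0068 with TPM scaling and 0.041 after centring and ranged from -0.080 to 0.040 with any 1 library left out. The cause of these changes was not tested.

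The replicate numbers were not shown to pair the libraries: deviations correlated at 0.32, -0.02 and 0.55 between libraries with the same number (1, 2 and 3). With the replicate number as a block, 1517 genes were higher and 1253 lower, Upk3b (1.43, adjusted p = 1.46e-07) and Msln (-0.20, adjusted p = 0.0384) were called, so that 1 member outside chromosomes 7 and 9 was higher and 1 lower, and 15 genes of the related lists were higher and 11 lower, and 1 epithelial marker was lower. Knockout 2 correlated best with GFP-Rgnef 1 (0.29) and knockout 1 best with GFP-Rgnef 2 (0.40).

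Over the table, 925 genes were higher and 614 lower, against 491 and 384 after centring, 394 lower without a filter, 1059 lower without the libraries numbered 3, and 458 to 848 higher and 198 to 580 lower with any 1 library left out. Of the 66 tested genes of the related lists 4 were higher and 7 lower, where 8.04% of all tested genes were higher and 5.34% lower. At a mean FPKM of at least 5, 2 of the related lists were higher. Without the libraries numbered 3, 15 were higher and 11 lower, while 1278 of all genes were higher and 1059 lower. With any 1 library left out, 3 to 9 were higher. Members called outside chromosomes 7 and 9 were 0 to 1 with any 1 library left out, and 1 without the libraries numbered 3. Cldn3 ranged from -0.23 to 0.21 and Cd68 from -0.10 to 0.23 with any 1 library left out, neither called.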
